A study of Mus musculus with 16 samples.

Results

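Histone genes were followed through total RNA of mouse peripheral blood mononuclear cells (PBMCs, the lymphocytes and monocytes that collect above a Ficoll cushion). The members were all genes of the expression table whose symbol carries a systematic histone name of the H1, H2A, H2B, H3 or H4 clusters, which gave 76 of 51179 genes. By lists of known forms 2 were replacement H1 genes (H1f0 and H1f10) and 6 were germ line forms. The other 68 were counted as replication-dependent (6 H1, 19 H2A, 18 H2B, 12 H3 and 13 H4 genes). These 68 include 4 pseudogene models, H1f11-ps, H2ac14-ps, H2ac5-ps and H2bc26. A further 9 replacement histone genes with other symbols, such as H3f3a, H3f3b and H2az1, were set beside them. Of the 76 members, 67 reached the level needed for testing (at least 1 TPM in at least 5 libraries), 65 of them replication-dependent, with H1f0 and the germ line gene H2bc1. The others were H1f10, H1f11-ps, H1f6, H1f7, H1f8, H1f9, H2ac1, H2ac18 and H3c14, of which H1f7, H1f9 and H3c14 were listed at 0 in every library. In the GENCODE M21 annotation (GRCm38) 56 members lay on chromosome 13, 10 on chromosome 3, 4 on chromosome 11, 3 on chromosome 6, 2 on chromosome 15 and 1 on chromosome 19.

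All libraries came from C57BL/6N mice. The chow group (n = 5) ate regular chow and got neither agent. The HFD+L-NAME group (n = 5) got a high-fat diet with L-NAME, which blocks nitric oxide synthase, for 15 weeks, which models heart failure with preserved ejection fraction. The HFD+L-NAME+NO2-OA group (n = 6) had the same 15 weeks and NO2-OA, nitro-oleic acid, over the last 4 weeks. No group got NO2-OA without the diet and L-NAME. The labels do not state that each library is a different mouse, so p-values measure the spread between these libraries.

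Replication-dependent histone genes supply the nucleosome proteins needed when DNA is copied. Their mRNAs are made mainly in S phase, have no introns, and end in a stem-loop in place of a poly(A) tail, which the stem-loop binding protein Slbp holds during processing, export and translation. Replacement histones, such as H3.3 (H3f3a and H3f3b), H2A.Z and H1.0, come from ordinary polyadenylated mRNAs made throughout the cell cycle and in cells that have stopped dividing. Some replication-dependent genes also give polyadenylated forms in differentiated cells. The libraries were primed with random oligonucleotides on total RNA, so RNA with and without a poly(A) tail could be counted, and the data do not separate the 2 forms.

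Levels are TPM, a length-scaled share of each library. The read totals recovered from the steps between TPM values lay between 4.94 M (HFD+L-NAME replicate 5) and 25.5 M (HFD+L-NAME+NO2-OA replicate 1), and 1 read of a gene of 500 bases stood for 0.128 to 0.496 TPM. Protein-coding genes took 39.1% to 56.4% of the TPM except in 3 libraries, HFD+L-NAME replicate 5 (15.1%), HFD+L-NAME+NO2-OA replicate 2 (15.9%) and chow replicate 3 (22.1%). Peritoneal macrophage markers (Alox15, Prg4, Timd4, C1qa and Gata6) summed to more than 100 TPM in 4 libraries, replicates 1 and 2 of chow with replicates 1 and 5 of HFD+L-NAME, and to at most 1.57 TPM in the rest. The library numbers in the labels fall into 2 runs, of which the second holds these 4 and HFD+L-NAME+NO2-OA replicate 2. Blood cell markers were present in every library, with 198 to 1436 TPM for B cells (Cd79a, Cd79b and Ms4a1) and 303 to 30201 TPM for platelets (Ppbp, Pf4, Itga2b and Gp9).

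The stem-loop that replaces the poly(A) tail was read from annotated transcripts (GENCODE M21) as a motif of 16 bases, with any base allowed at the 3 positions where the forms below differ, on the transcript strand alone. It was in 42 of the 76 members, against 47 of 55450 annotated genes (0.0848%). Among the 68 replication-dependent genes 41 held it, with 3 of 6 H1, 11 of 19 H2A, 10 of 18 H2B, 8 of 12 H3 and 9 of 13 H4 genes, and the germ line gene H1f6 held it too. None of the 2 replacement members did. Outside the members 5 of 55374 genes held it, and whether other replacement genes are among them was not looked at. A missing match says only that these letters are not in the annotated transcript, which can end early. The forms below are shown because they carry the stem-loop and because the stem of H4 genes differs from that of the other families. Capitals mark the stem-loop.
H4c18: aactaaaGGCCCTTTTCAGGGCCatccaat
H4c9: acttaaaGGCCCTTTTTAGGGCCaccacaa
H1f2: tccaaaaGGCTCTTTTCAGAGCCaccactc
H2ac19: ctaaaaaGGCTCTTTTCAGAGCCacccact
H2ac6: acccaaaGGCTCTTTTCAGAGCCcccactt
H3c6: ccaaaacGGCTCTTTTAAGAGCCacctcca
The form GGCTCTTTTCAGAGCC was the most frequent, with 26 members of the H1, H2A, H2B and H3 families, and H1f2, H2ac19 and H2ac6 hold it. H4 genes held another stem, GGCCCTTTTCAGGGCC in 7 members including H4c18 and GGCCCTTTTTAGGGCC in H4c9 and H4c14. The letters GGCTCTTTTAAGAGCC were in 6 members, H3c6 among them, and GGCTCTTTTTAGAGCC in H2ac20 alone. The annotated transcript ended 31 bases after the stem-loop in H4c18 and 35 bases after it in H2ac19, and ran on for 330 bases in H4c9, 369 in H3c6, 840 in H1f2 and 2010 in H2ac6. No match was found in the annotated transcripts of H2bc4 and H4c1.

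The promoters of 4 members are given because H4c18, H4c9 and H2ac6 moved with the platelet markers across libraries while H4c1 did not (below). Each runs from 250 bases before to 50 after the gene's start (RefSeq, GRCm38.p6), in the direction of the gene. Capitals mark the letters of the CCAAT box (CCAAT or ATTGG), the TATA box (TATAAA or TTTATA), the octamer of H2A and H2B promoters (ATTTGCAT or ATGCAAAT) and the H4 element (GGTCCG or CGGACC). The letters are marked wherever they stand in the window, so a marked stretch need not be a working element.
H4c18, chr13:21832148-21832447, minus strand: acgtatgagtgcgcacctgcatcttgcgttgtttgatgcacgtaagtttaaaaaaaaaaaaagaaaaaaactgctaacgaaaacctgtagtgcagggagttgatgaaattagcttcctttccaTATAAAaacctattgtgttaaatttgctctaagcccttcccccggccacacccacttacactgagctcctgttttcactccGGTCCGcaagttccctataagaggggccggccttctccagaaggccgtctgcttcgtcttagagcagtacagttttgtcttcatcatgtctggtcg
H4c9, chr13:22041313-22041612, minus strand: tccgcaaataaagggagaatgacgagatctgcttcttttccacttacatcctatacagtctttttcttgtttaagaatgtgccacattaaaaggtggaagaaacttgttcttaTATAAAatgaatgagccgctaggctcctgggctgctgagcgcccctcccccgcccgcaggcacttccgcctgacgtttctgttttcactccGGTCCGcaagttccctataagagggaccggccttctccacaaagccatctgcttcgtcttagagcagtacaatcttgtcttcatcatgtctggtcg
H2ac6, chr13:23683910-23684209, minus strand: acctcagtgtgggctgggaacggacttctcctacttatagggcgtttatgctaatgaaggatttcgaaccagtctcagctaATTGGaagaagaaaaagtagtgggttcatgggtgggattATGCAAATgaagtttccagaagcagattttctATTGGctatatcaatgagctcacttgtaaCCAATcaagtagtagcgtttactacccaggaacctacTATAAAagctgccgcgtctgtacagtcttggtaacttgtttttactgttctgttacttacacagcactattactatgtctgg
H4c1, chr13:23761200-23761499, minus strand: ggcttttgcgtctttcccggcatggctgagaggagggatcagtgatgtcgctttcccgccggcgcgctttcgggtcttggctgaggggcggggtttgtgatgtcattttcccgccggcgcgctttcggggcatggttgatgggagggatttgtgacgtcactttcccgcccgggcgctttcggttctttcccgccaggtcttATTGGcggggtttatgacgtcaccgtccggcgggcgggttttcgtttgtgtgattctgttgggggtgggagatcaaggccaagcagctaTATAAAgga
RefSeq promoters were present for 63 members. On either strand, CCAAT was in 52 of them (82.5%) against 37.4% of 32851 promoters, and TATAAA in 34 (54.0%) against 13.6%. CCAAT was in all 17 H2A, all 14 H2B and all 10 H3 promoters, and in 3 of 11 H4 promoters. ATTTGCAT was in 12 members (19.05%) against 1.74% of all promoters, 6 of 17 H2A and 6 of 14 H2B promoters and none of the H1, H3 or H4 promoters. GGTCCG was in 13 members (20.6%) against 8.25%, among them 10 of 11 H4 promoters, with H4c1 the H4 promoter that lacked these letters. The longest identical run of bases was 285 for H4c17 and H4c18, 38 for H4c9 and H4c18 and 7 for H4c1 and H4c18. The H4c18 and H4c9 windows end in the same letters, with GGTCCG well before them. The H4c1 window has TATAAA at its very end and does not reach those letters, so its start may be placed differently in the gene. Its missing GGTCCG and short identical run hold for this window alone. Promoters were present for 13 of the tested members with r of at least 0.8 with the platelet markers (below) and for 42 others. GGTCCG was in 3 of the 13 and 9 of the 42, and TATAAA in 8 and 24. CCAAT was in 10 and 36, and ATTTGCAT in 3 and 8. The motifs were chosen after the data were seen, and a match is a description of the letters, not of binding.

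Replication-dependent histone RNA was present in every library and ranged from 967 to 10920.4 TPM. The 68 genes summed to 3587, 7030.2, 1842, 3272 and 7087 TPM in chow replicates 1 to 5. The HFD+L-NAME replicates held 3129, 6375, 10920.4, 5204 and 1084 TPM. In HFD+L-NAME+NO2-OA the sum ran from 967 to 7340.5 TPM with a median of 3544. The highest and the second lowest library were both HFD+L-NAME, and the ranges of the 3 groups overlapped. Group means were 4564 ± 2371 (SD, n = 5), 5342 ± 3716 (n = 5) and 3897 ± 2209 TPM (n = 6) for chow, HFD+L-NAME alone and HFD+L-NAME+NO2-OA. All 76 members together took 0.0970% to 1.09% of the TPM and 0.0821% to 0.486% of the recovered reads of a library.

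The H4 family, whose protein forms the nucleosome core with H3, held the largest share of the replication-dependent sum, 39.1% on average over 16 libraries. H2A followed with 21.05%, H2B with 17.9%, the linker histones H1 with 13.0% and H3 with 8.97%. H3 also varied in share, from 2.80% in HFD+L-NAME replicate 3, the library with the highest sum, to 20.3% in the library with the lowest, HFD+L-NAME+NO2-OA replicate 2. H4, H2A and H2B spanned 27.4% to 45.9%, 16.2% to 26.6% and 14.4% to 20.6%. The proteins form nucleosomes in fixed proportion, and the RNA shares were far from equal. The shares depend on the gene lengths used for TPM and on how reads of near copies were counted (below).

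**Figure D1:**
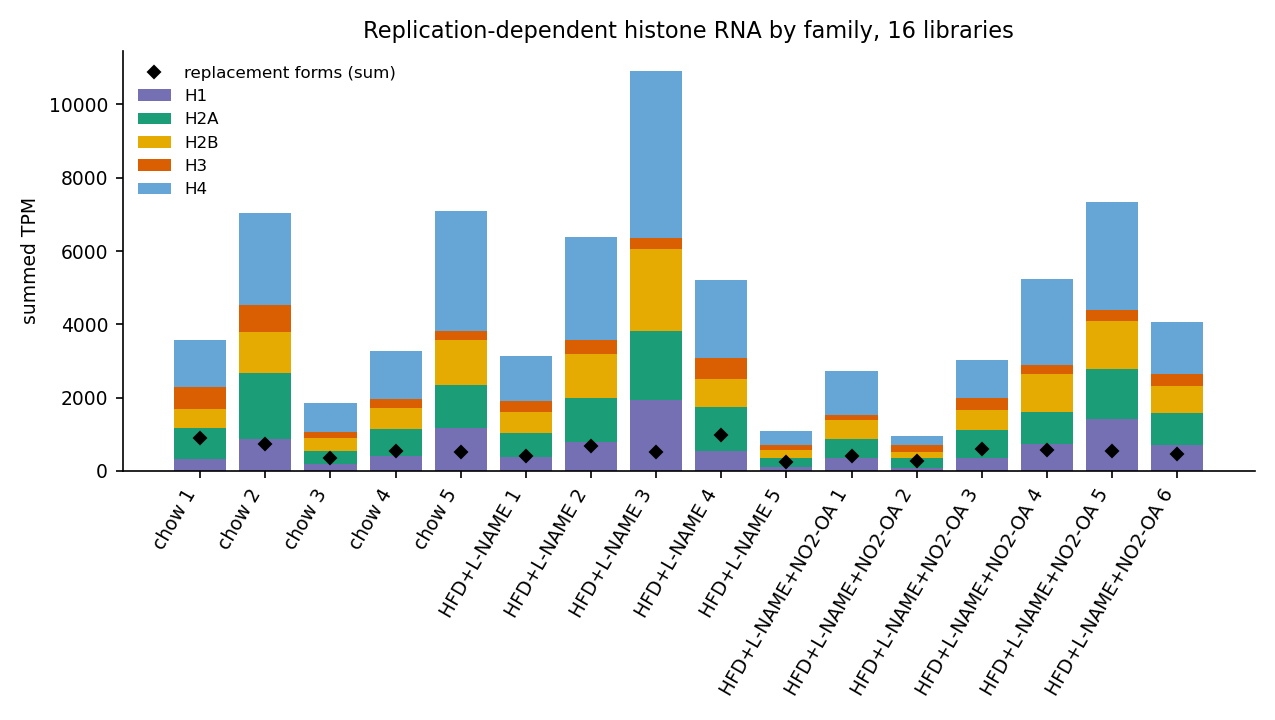
Summed TPM of the replication-dependent genes of each histone family in each of the 16 libraries, as stacked bars ordered by group and replicate, with the summed replacement genes as diamonds. The tallest bar, HFD+L-NAME replicate 3 at 10920.4 TPM, and the low bar of HFD+L-NAME replicate 5 at 1084 TPM belong to the same group.

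Few genes carried most of the signal. The 5 highest members, H4c18, H4c17, H1f2, H2ac19 and H2bc4, made up 28.5% to 77.9% of the replication-dependent sum (mean 58.2%). Mean levels reached 100 TPM in 7 members and 10 TPM in 48. Among replication-dependent genes 41 lay between 10 and 100 TPM and 20 below 10 TPM. Over the 66 tested members above 0 in every library, the highest library stood 4.43-fold to 76.9-fold above the lowest, with a median of 8.57-fold.

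H4c18 was at 299, 1019, 308, 599 and 1571 TPM in chow replicates 1 to 5. Its HFD+L-NAME libraries held 439.8, 1421, 2224, 944 and 148 TPM, and its HFD+L-NAME+NO2-OA libraries ran from 56.2 to 1615 TPM with a median of 627. HFD+L-NAME replicate 3 was the highest library, HFD+L-NAME+NO2-OA replicate 2 was the lowest, and all 3 groups overlapped. H4c17, a near copy of it, averaged 569 ± 432, 766 ± 647 and 499 ± 328 TPM in chow, HFD+L-NAME alone and HFD+L-NAME+NO2-OA. H4c8, the third H4 gene by level, stayed lower at 110.1 ± 62.3, 80.9 ± 42.2 and 59.5 ± 24.8 TPM.

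H1f2 codes for a linker histone, which binds DNA between nucleosomes. Chow replicates held 238, 729, 169, 357 and 1150.4 TPM, HFD+L-NAME replicates 351, 739, 1919.9, 491 and 75.6 TPM, and HFD+L-NAME+NO2-OA replicates ran from 62.6 to 1382 TPM with a median of 501. Chow replicate 5, HFD+L-NAME replicate 3 and HFD+L-NAME+NO2-OA replicate 5 were high, each the top of its group, and the groups overlapped. The next H1 genes were far below, with means over 16 libraries of 26.6 TPM for H1f4 and 12.3 TPM for H1f1.

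H2ac19 was the leading H2A gene, at 388, 836, 179, 343 and 765 TPM in chow, 339, 630.3, 1333, 529 and 98.0 TPM in HFD+L-NAME alone and from 112 to 894 TPM with a median of 414 in HFD+L-NAME+NO2-OA. H2ac23 followed with 90.4 ± 58.9, 85.1 ± 49.4 and 63.6 ± 31.1 TPM, and H2ac24 had almost the same values, 87.4 ± 58.6, 84.6 ± 49.5 and 61.8 ± 29.4 TPM. No other H2A gene averaged 100 TPM, and the groups overlapped for these 3 genes as well.

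H2bc4 led the H2B family and had the widest range of any tested member above 0, 76.9-fold. Its chow libraries held 87.4, 353, 131, 192 and 589 TPM. In HFD+L-NAME it was at 225, 494, 1252, 283 and 39.0 TPM, and in HFD+L-NAME+NO2-OA from 16.3 to 754 TPM with a median of 272. The extreme libraries were those of H4c18. H2bc15 averaged 130.1 ± 66.9, 142 ± 88.7 and 91.3 ± 46.1 TPM and H2bc8 118 ± 61.2, 131 ± 96.7 and 106 ± 48.1 TPM in chow, HFD+L-NAME alone and HFD+L-NAME+NO2-OA.

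The H3 genes were lower and highest in other libraries. H3c11 was at 92.2, 131, 28.7, 36.4 and 60.2 TPM in chow, 50.8, 82.6, 96.8, 93.7 and 24.7 TPM in HFD+L-NAME alone and from 33.0 to 66.04 TPM with a median of 56.9 in HFD+L-NAME+NO2-OA. For H3c6 the chow values were 114, 130.4, 25.3, 49.9 and 32.4 TPM, the HFD+L-NAME values 37.6, 70.9, 26.8, 134 and 29.5 TPM, and the HFD+L-NAME+NO2-OA values ran from 24.5 to 67.2 TPM with a median of 49.1. Chow replicates 1 and 2 and HFD+L-NAME replicate 4 were high for H3c6, while HFD+L-NAME replicate 3, the highest library for H4c18 and H2bc4, was at 26.8 TPM. H3c10 averaged 60.2 ± 45.5, 44.96 ± 18.1 and 33.1 ± 6.48 TPM. Counted over the 67 tested members, chow replicate 2 was the highest library for 30, HFD+L-NAME replicate 3 for 18 (12 of them H2B genes), HFD+L-NAME replicate 4 for 11 and chow replicate 1 for 6. HFD+L-NAME+NO2-OA replicate 2 was the lowest for 27, HFD+L-NAME replicate 5 for 17, HFD+L-NAME+NO2-OA replicate 1 for 10 and chow replicate 3 for 9, and 3 of these 4 libraries are those with under 25% protein-coding TPM.

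**Figure D2:**
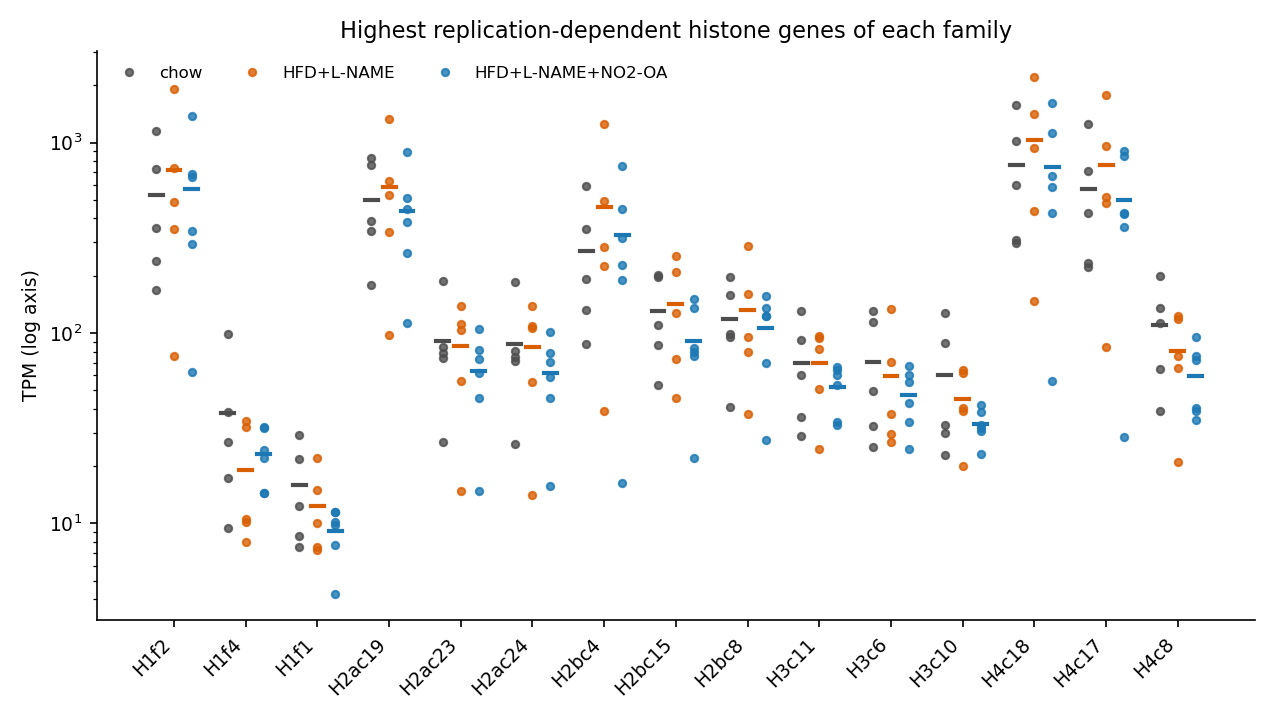
TPM (log scale) of the 3 highest replication-dependent members of each family, with 1 point per library coloured by group and a line at each group mean. H2bc4 spreads over 16.3 to 1252 TPM and H3c6 over 24.5 to 134 TPM, and the 3 groups overlap for each of the 15 genes.

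Many histone genes are near copies of each other, so values of single genes can be uncertain. Of the 76 members, 25 shared at least 50% of their 100-base stretches with another member, 13 shared at least 80% and 16 shared none. How reads that fit several places were counted is not given in the sources used here. H2ac23 and H2ac24 had 3576 and 3522 recovered reads over all libraries and differed by less than sampling noise within libraries (chi-square per degree of freedom 0.0724), as did H2bc23 and H2bc24 (8873 and 8631 reads, 0.189). Their values therefore cannot be read as those of separate genes. H4c17 and H4c18 did differ between libraries beyond sampling noise (21811 and 33419 reads, 20.2), and so did H3c10 and H3c11 (1631 and 2266 reads, 4.19). H2ac18 had 10 reads against 26669 for H2ac19. The pseudogene models H2ac14-ps, H2ac5-ps and H2bc26 averaged 8.78, 7.78 and 7.05 TPM and are counted among the tested replication-dependent genes. H2bc1, a testis form of H2B, ran from 0 to 15.6 TPM and was the only germ line member tested.

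The summed replacement histone RNA spanned a narrower range than the replication-dependent sum. The 11 replacement genes summed to 615 ± 210.0, 568 ± 288 and 481 ± 124 TPM in chow, HFD+L-NAME alone and HFD+L-NAME+NO2-OA, with 238 to 991 TPM over the libraries. Replication-dependent RNA was 3.44 to 20.95 times as high, with mean ratios of 7.67, 9.56 and 7.71. Without the 5 highest genes the ratio was 2.25 to 4.67. The ratio spanned less without these 5 genes than with them.

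H3f3b and H3f3a, which code for the same protein H3.3, were the highest replacement genes. H3f3b was at 407, 242, 156, 178 and 141 TPM in chow, 98.2, 207, 115, 458 and 103 TPM in HFD+L-NAME alone and from 100.1 to 186 TPM with a median of 149.7 in HFD+L-NAME+NO2-OA. Chow replicate 1 and HFD+L-NAME replicate 4 were high for H3f3b, as they were for H4c1 (below). H3f3a averaged 181 ± 65.5, 196 ± 87.9 and 175 ± 63.7 TPM. Of the H2A.Z genes, H2az1 averaged 83.1 ± 38.4, 68.9 ± 40.2 and 57.7 ± 12.9 TPM and H2az2 15.7 ± 5.98, 11.1 ± 5.83 and 11.5 ± 4.30 TPM. H2ax, whose protein is phosphorylated at DNA breaks, averaged 28.8 ± 10.2, 30.0 ± 15.3 and 21.3 ± 5.01 TPM, and H2aj 25.9 ± 8.41, 24.7 ± 11.7 and 21.5 ± 6.50 TPM. Macroh2a1, an H2A form with a large extra domain, averaged 30.7 ± 12.5, 22.0 ± 11.2 and 25.8 ± 9.51 TPM, while Macroh2a2 did not exceed 0.0759 TPM in any library. Cenpa, the centromere form of H3, averaged 20.7 ± 7.12, 15.5 ± 9.13 and 16.5 ± 5.19 TPM. The replacement H1 genes of the rule were low, H1f0 from 0.916 to 6.00 TPM and H1f10 from 0.109 to 1.63 TPM.

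Part of the histone genes followed the platelet markers, and also the progenitor markers, across libraries. Platelets have no nucleus and carry RNA from megakaryocytes. Their summed markers averaged 7036 ± 6191, 10800.4 ± 11386 and 8056 ± 6747 TPM in chow, HFD+L-NAME alone and HFD+L-NAME+NO2-OA, with the lowest library, HFD+L-NAME+NO2-OA replicate 2, at 303 TPM and the highest, HFD+L-NAME replicate 3, at 30201 TPM. H2bc4 had a Pearson r of 0.98 and a Spearman rho of 0.98 with this sum over 16 libraries, both on the log2(TPM + 1) scale as in all such relations here (permutation tests, two-sided, both p at 1e-05, the smallest that 100000 permutations can give, adjusted p 0.000122 for r and 0.000191 for rho over 134 relations). Without the 2 libraries farthest from the median of the marker sum r was 0.96, in the 11 libraries of run 1 0.96, and with both values scaled to the protein-coding sum 0.97. Run 2 holds 5 libraries, too few for a value of its own. All TPM values of a library share its total. In bulk RNA, fewer cells of a type and less RNA per cell cannot be told apart.

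Of the 67 tested members 15 had r of at least 0.8 with the platelet sum, or 22.4%, against 6.53% of all tested genes. They were H2bc4, H4c9 (0.98), H4c17 (0.96), H4c18 (0.96), H1f2 (0.94), H2bc24, H2bc7 and H2bc23 (0.91 each), H2ac6 (0.90), H2bc15 (0.86), H2ac19 (0.85), H2bc1 (0.84), H2bc8 and H2bc11 (0.83 each) and H2bc13 (0.80). By family these were 9 of 19 H2B, 3 of 13 H4, 2 of 18 H2A, 1 of 6 H1 and 0 of 11 H3 genes. Near copies count as separate genes here and for the other marker sums. H2bc23 and H2bc24, which cannot be read as separate genes, are both among the 15. H2bc11, H2bc13, H2bc15 and H2bc1 shared 40.1%, 49.3%, 46.5% and 27.4% of their stretches with H2bc24, and H4c17 88.1% with H4c18. H4c9, H2ac6 and H1f2 shared 9.87%, 7.55% and 3.42% with their closest member. The part of shared reads in these counts was not tested. The lowest r among the 15 was 0.64 without the 2 farthest libraries, 0.78 in run 1 and 0.56 on the protein-coding scale, and the highest adjusted permutation p was 0.00128 for r and 0.00291 for rho. The 15 held all 5 leading genes and also lower ones, since H4c9 averaged 81.3 TPM and H2ac6 24.5 TPM. In run 1 alone 14 of 67 beside 5.88% of genes reached 0.8, and on the protein-coding scale 9 of 67 beside 4.16%. The stem-loop was annotated in 9 of the 15 and in 30 of the 52 other tested members.

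The sum of haematopoietic progenitor markers (Cd34, Kit, Flt3 and Gata2) was related to histone genes as well. Of these 4 markers 2 reached the level needed for testing, so the sum can rest on few genes. It was lowest and highest in the same libraries as the platelet sum, at 1.83 and 21.6 TPM. The progenitor sum averaged 9.74 ± 4.99 TPM in chow, 11.3 ± 7.18 in HFD+L-NAME alone and 8.46 ± 4.60 in HFD+L-NAME+NO2-OA. With this sum r was at least 0.8 for 19 of 67 beside 8.74% of genes, for 19 of 67 beside 6.76% in run 1 and for 9 of 67 beside 3.31% on the protein-coding scale. Of the 15 members at 0.8 or more with the platelet sum, 14 were also at 0.8 or more with the progenitor sum. The part of either in the histone levels was not tested. With the summed monocyte markers 0 of 67 had r of at least 0.8 and 28 at least 0.5, beside 0.196% and 17.8% of genes. In run 1 these were 5 and 33, beside 3.5% and 24.1%, and on the protein-coding scale 0 and 5, beside 0.189% and 6.2%. With the platelet sum 29 of 67 had at least 0.5, beside 15.5%. In run 1 it was 26, beside 9.78%, and on the protein-coding scale 16, beside 7.08%. The part of monocytes was not tested either.

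**Figure D3:**
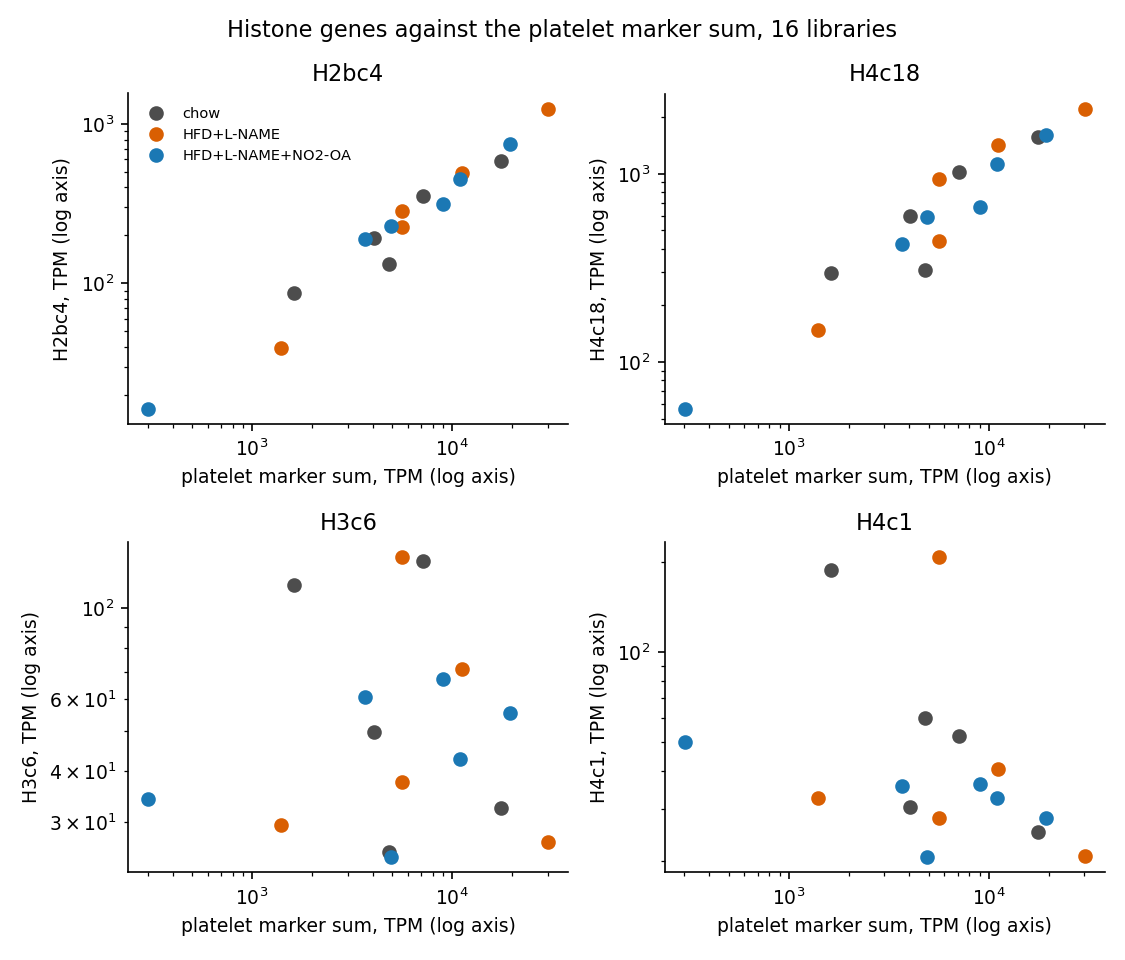
TPM of H2bc4, H4c18, H3c6 and H4c1 against the summed TPM of 4 platelet markers (Ppbp, Pf4, Itga2b and Gp9), log axes, with 1 point per library coloured by group. H2bc4 and H4c18 rise with the sum (r 0.98 and 0.96 on the log2(TPM + 1) scale) and H3c6 and H4c1 do not (r 0.00 and -0.37).

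Other members showed no such rise. H3c6 had r = 0.00 with the platelet sum (rho 0.04, permutation p 0.993 for r and 0.883 for rho, adjusted 0.993 and 0.910). H4c1 had r = -0.37 (rho -0.43, permutation p 0.155 for r and 0.0995 for rho, adjusted 0.223 and 0.180). Without the 2 farthest libraries r was -0.02 for H3c6 and -0.37 for H4c1, and in run 1 -0.20 and -0.38. On the protein-coding scale it was -0.46 and -0.55. The r was below 0 in 11 of 67 members, against 29.7% of all tested genes. In run 1 alone it was below 0 in 20 of 67 beside 78% of genes, and on the protein-coding scale in 37 of 67 beside 81.5%. H4c1 itself was at 188, 52.3, 60.5, 30.4 and 25.004 TPM in chow, 27.8, 40.6, 20.8, 208 and 32.6 TPM in HFD+L-NAME alone and from 20.6 to 50.04 TPM with a median of 34.1 in HFD+L-NAME+NO2-OA. Chow replicate 1 and HFD+L-NAME replicate 4 stood above all other libraries for it.

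B cell markers gave another picture. They averaged 777 ± 454, 551 ± 254 and 553 ± 252 TPM in the 3 groups. Of the 67 tested members 6 had r of at least 0.8 with this sum, against 32.9% of all tested genes, namely H2bc21 (0.87), H2ac13 (0.87), H1f4 (0.84), H4c4 (0.82), H2ac4 and H1f0 (0.81 each). With r of at least 0.5 the count was 43 of 67, against 70.1% of all tested genes. The r was below 0 for 1 of 67 members against 4.62% of all tested genes. In run 1 alone 0.8 was reached by 4 of 67 beside 38.9% of genes, 0.5 by 22 of 67 beside 69.1%, and r was below 0 for 6 of 67 beside 9.26%. On the protein-coding scale these were 5 of 67 beside 16.5%, 30 of 67 beside 61.1% and 10 of 67 beside 9.92%. The part of B cells in the histone levels was not tested.

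**Figure D4:**
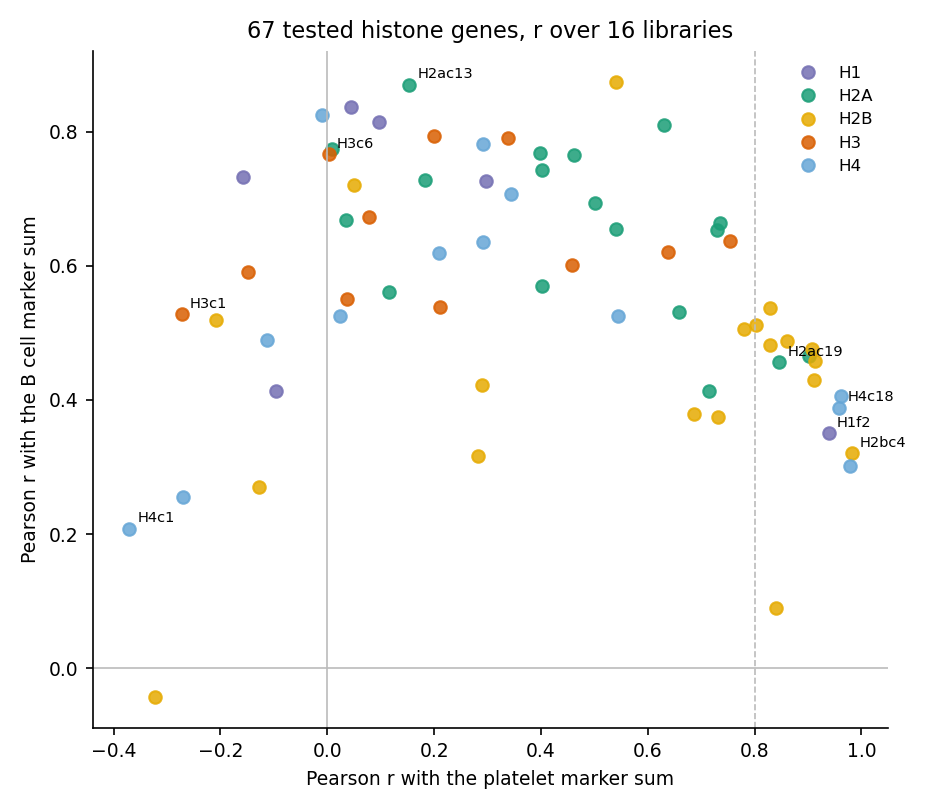
Pearson r over 16 libraries of each of the 67 tested members with the summed platelet markers (x axis) and the summed B cell markers (y axis), coloured by family. At the right, with r of at least 0.8 for platelets, lie 9 of the 19 H2B and 3 of the 13 H4 genes, and no H3 gene reaches that value.

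HFD+L-NAME was compared with chow to ask what the diet and L-NAME changed. No histone gene passed the test (limma on log2(TPM + 1), Benjamini-Hochberg over all 16365 tested genes), and 0.00611% of all genes did, 1 gene, Gm23054. The smallest adjusted p of a member was 0.816, and 0 of 67 members had an unadjusted p under 0.05, against 2.93% of all genes. Limma-voom on recovered reads called 0 members too, whereas limma with quality weights per library called 10 of 67, beside 25.7% of all genes, with 1 library, HFD+L-NAME replicate 1, at a weight of 15.6. The 4 members of smallest p were H4c6, H2bc27, H1f4 and H4c2. H4c6 was at 31.4, 21.4, 8.12, 11.4 and 9.88 TPM in chow and 19.9, 5.404, 6.61, 10.1 and 6.93 TPM in HFD+L-NAME, a log2 difference of -0.66 ± 0.40 (SE, limma adjusted p 0.816). The differences were -0.58 ± 0.36 for H2bc27, -0.79 ± 0.51 for H1f4 and -0.62 ± 0.41 for H4c2, at the same adjusted p, and the groups overlapped for all 4.

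By family the median log2 difference of HFD+L-NAME against chow was -0.28 for 5 H1, -0.10 for 18 H2A, 0.02 for 18 H2B, -0.13 for 11 H3 and -0.43 for 13 H4 genes, beside -0.29 over all genes. Below 0 were 42 of 67 members against 82.1% of all genes. Near copies count as separate genes in all such counts of the 3 comparisons. The direction depended on scaling and on libraries. Leaving out chow replicate 2 left 22 of 67 below 0, beside 77.5% of all genes, and leaving out HFD+L-NAME replicate 5 left 25, beside 68%. With median-of-ratios scaling, which brings the median of all genes to 0.03, 12 of 67 members were below 0 beside 44.6% of all genes, and with TMM 15 beside 53.4%. In run 1 alone (3 chow and 3 HFD+L-NAME libraries) 1 of 67 was below 0 beside 27.1% of all genes, with a median of 0.76 beside 0.13 for all genes, no member called and 10 members at an unadjusted p under 0.05, beside 2.25% of all genes. Over all 16 libraries less chow replicate 3 that count was 3, beside 6.05%. Less replicate 1 or replicate 4 of HFD+L-NAME it was 1, beside 2.4% and 8.41% of all genes. The 6 libraries of run 1 are also the ones left when the libraries with peritoneal macrophage genes are taken out. That fit keeps HFD+L-NAME+NO2-OA replicate 2 for the spread and gave 3 members at an unadjusted p under 0.05, beside 1.42% of all genes. In the same 3 and 3 libraries the platelet sum averaged 8805 TPM in chow and 15659 TPM in HFD+L-NAME, and its part in the difference was not tested. The means of other cell markers differed too, and their part was not tested either. Over all libraries T cell markers averaged 195 ± 75.5 TPM in chow and 92.4 ± 54.4 TPM in HFD+L-NAME, and immature neutrophil markers 45.5 ± 30.8 and 138 ± 87.1 TPM.

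The summed replication-dependent RNA differed by 0.04 on the log2 scale (SD between libraries 1.06) and the replacement sum by -0.21 (SD 0.66). Both were smaller than the spread between libraries. Of the 9 tested replacement genes 8 were below 0, with a median of -0.36, and none passed the test. In run 1 alone the replication-dependent sum was 7499.7 ± 3019.7 TPM in HFD+L-NAME against 4067 ± 2712 in chow (n = 3 each), a log2 difference of 1.03, and in run 2 it was 2106 against 5309 TPM (n = 2 each), in the other direction.

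HFD+L-NAME+NO2-OA was compared with HFD+L-NAME to ask what NO2-OA changed on top of the diet. No histone gene passed, and 0.00611% of all genes did, again 1 gene, Gm25131, listed at 0 in all HFD+L-NAME libraries. The smallest adjusted p of a member was 1.00, and 1 of 67 members had an unadjusted p under 0.05, against 0.947% of all genes. That count depended on scaling and on libraries. It was 8 with median-of-ratios scaling and 8 with TMM, beside 3.32% and 3.5% of all genes. It was 5 in run 1 alone and 11 without the libraries with peritoneal macrophage genes, beside 1.62% and 1.58%. Leaving out HFD+L-NAME replicate 5 gave 4, HFD+L-NAME+NO2-OA replicate 6 gave 3 and HFD+L-NAME replicate 1 gave 2, beside 0.898%, 0.788% and 1.09%. The 1 member with all libraries was H3c3, at 12.0, 9.97, 9.98, 9.05 and 6.97 TPM in HFD+L-NAME alone and from 3.45 to 7.84 TPM with a median of 4.28 in HFD+L-NAME+NO2-OA, a log2 difference of -0.87 ± 0.34 (limma unadjusted p 0.0187, adjusted p 1.00). The highest HFD+L-NAME+NO2-OA library lay above the lowest HFD+L-NAME library, so the groups overlapped. Limma-voom on recovered reads called 0 members and limma with quality weights 11 of 67, beside 11.1% of all genes. H2bc14, H2bc26 and H2ac10 followed with -0.62 ± 0.33, -0.78 ± 0.43 and -0.61 ± 0.34.

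Below 0 were 61 of 67 members, near copies counted as separate genes, against 35.3% of all genes, with a median of -0.31 beside 0.08. The median was -0.18 for H1, -0.27 for H2A, -0.35 for H2B, -0.32 for H3 and -0.32 for H4 genes. With median-of-ratios scaling 66 members were below 0, with TMM 65 and in run 1 alone 65, beside 57.6%, 49.8% and 51.3% of all genes, with a median of -0.61 over the members in run 1. With quality weights per library it was 27 of 67, beside 33.2%. Leaving out HFD+L-NAME+NO2-OA replicate 2 gave 42 of 67, beside 21.7%, and a median of -0.08. The platelet sum was lower as well, 8056 ± 6747 against 10800.4 ± 11386 TPM, within the spread, and its part was not tested. The sums differed by -0.34 (SD 1.13) for replication-dependent and -0.13 (SD 0.61) for replacement genes, again less than the spread. Of the 9 replacement genes 6 were below 0 with a median of -0.11, against 60 of 65 and -0.32 for replication-dependent genes.

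HFD+L-NAME+NO2-OA against chow shares its libraries with the other comparisons. No histone gene passed and neither did any other, 0.0% of 16365 genes, while 458 genes (2.8%) had an unadjusted p under 0.05. Of the 67 members 3 had an unadjusted p under 0.05, H4c6, H4c2 and H3c3, each with a lower mean in HFD+L-NAME+NO2-OA. The log2 difference was -0.92 ± 0.38 for H4c6 (limma unadjusted p 0.0231, adjusted p 0.977), -0.94 ± 0.40 for H4c2 (0.0251 and 0.977) and -0.73 ± 0.34 for H3c3 (0.0441 and 0.977). Leaving out chow replicate 3 raised that count to 11, beside 3.88% of all genes, and leaving out the 3 libraries under 25% protein-coding TPM to 10, beside 4.27%. Removing HFD+L-NAME replicate 5, chow replicate 4 or chow replicate 5 gave 5 such members each, beside 3.34%, 3.21% and 3.62% of all genes. Removing HFD+L-NAME+NO2-OA replicate 2 gave 1, beside 3.08%. No member was left in run 1 alone, nor on removing chow replicate 1 or 2, or HFD+L-NAME+NO2-OA replicate 1. The shares of all genes there were 2.13%, 1.28%, 1.78% and 1.6%. H4c11 was next with -0.77 ± 0.38. Limma-voom on recovered reads called 0 genes, and limma with quality weights called 34 genes and 0 members. H4c6 was from 3.89 to 10.1 TPM with a median of 7.57 in HFD+L-NAME+NO2-OA, and H4c2 from 5.79 to 19.8 TPM with a median of 14.9 against 48.5, 42.3, 14.5, 19.8 and 18.9 TPM in chow.

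In this comparison all 67 tested members were below 0, beside 82.7% of all genes, with a median of -0.45 against -0.20. H4 genes had the lowest median, -0.71, and H2A genes the highest, -0.33. With median-of-ratios scaling or TMM 56 of 67 were below 0, beside 51.2% and 53.1% of all genes. In run 1 alone it was 15 of 67, beside 29.5%, with a median of 0.19. Without the libraries with peritoneal macrophage genes it was 35 of 67, beside 48.5%. Leaving out chow replicate 2 or HFD+L-NAME+NO2-OA replicate 2, both of run 2, gave 51 of 67 each, beside 72.8% and 65.2%. Means of cell markers differed between the same groups. From chow to HFD+L-NAME+NO2-OA the summed T cell markers went from 195 ± 75.5 to 119 ± 32.2 TPM, NK cell markers from 86.9 ± 41.3 to 44.5 ± 13.1 TPM and immature neutrophil markers from 45.5 ± 30.8 to 150.3 ± 57.9 TPM. Red cell and erythroblast markers went from 17375 ± 17788 to 56321 ± 60098 TPM, and haemoglobin genes took 0.0768% (chow replicate 1) to 15.9% (HFD+L-NAME+NO2-OA replicate 1) of the TPM. Their part in the difference was not tested. The sums differed by -0.30 (SD 0.93) for replication-dependent and -0.33 (SD 0.46) for replacement genes, and all 9 tested replacement genes were below 0 as well, with a median of -0.40.

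**Figure D5:**
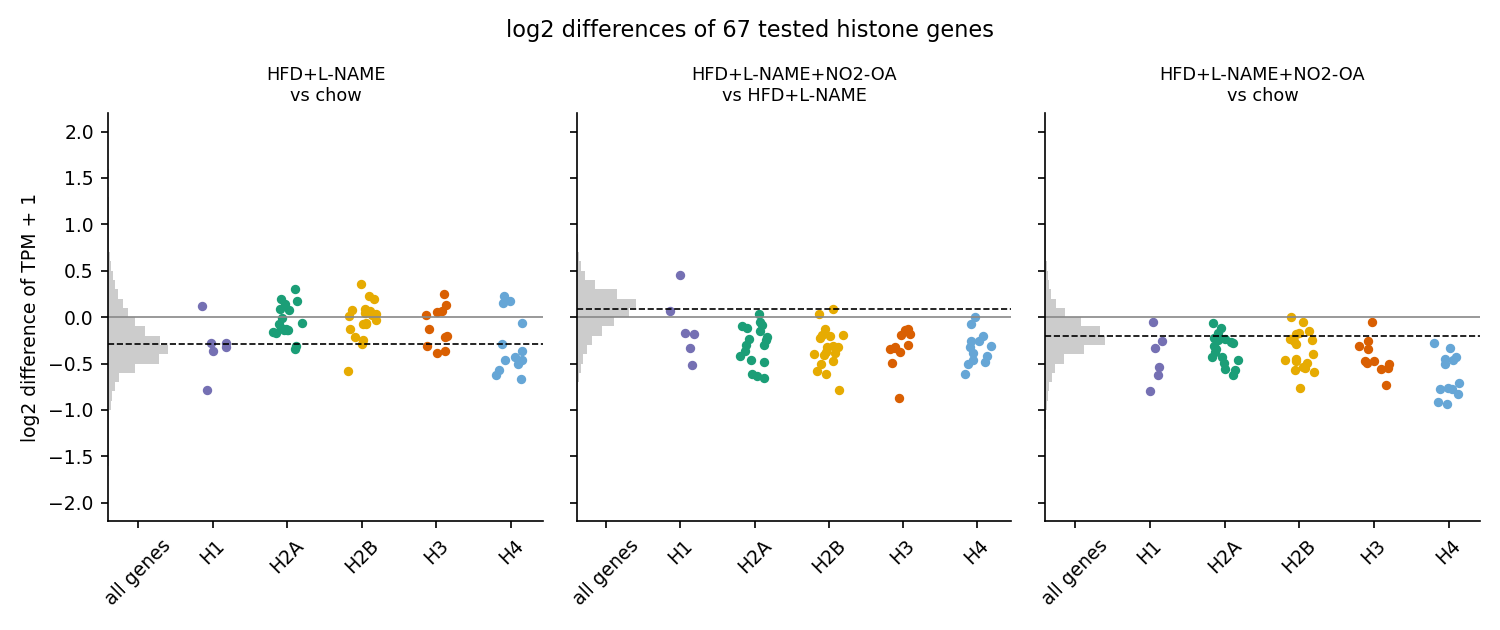
Log2 differences of log2(TPM + 1) for the 67 tested members, by family, in the 3 comparisons (panels). H1f0 is drawn with H1 and H2bc1 with H2B. The grey histogram shows the tested genes within the axis, scaled to its highest bin, and the dashed line the median of all 16365. The members' medians are -0.12, -0.31 and -0.45, beside -0.29, 0.08 and -0.20 for all genes, and no member passed the test.

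Genes that make, process and load histones were looked at next. None of the 17 tested genes (of 19) for histone mRNA processing and transcription, 15 (of 17) histone chaperones, 23 (of 26) replication and S phase genes or 9 (of 18) mitosis genes passed in any comparison. Against chow, HFD+L-NAME was below 0 for 17, 15, 21 and 5 of them, beside 82.1% of all genes. The medians were -0.36, -0.41, -0.34 and -0.01 beside -0.29 for all genes. HFD+L-NAME+NO2-OA relative to HFD+L-NAME was below 0 for 3, 3, 7 and 4, beside 35.3% of all genes. Relative to chow it was below 0 for 17, 15, 21 and 6, beside 82.7%. In this last comparison 2 of the 9 mitosis genes were higher and 1 of the 23 S phase genes lower at an unadjusted p under 0.05 (limma), beside 2.8% of all genes. No other gene of these lists reached that in any comparison. Slbp was at 27.0, 13.7, 17.1, 13.6 and 8.00 TPM in chow, 9.90, 15.4, 5.98, 28.3 and 6.85 TPM in HFD+L-NAME alone and from 7.20 to 14.3 TPM with a median of 11.3 in HFD+L-NAME+NO2-OA, with overlapping groups. Npat, which activates histone transcription, averaged 8.77 ± 3.10, 6.22 ± 3.69 and 7.13 ± 1.51 TPM. Coil, a scaffold protein of Cajal bodies, averaged 3.80 ± 1.54, 2.57 ± 1.44 and 2.25 ± 0.509 TPM, and Srrt, a partner of the cap-binding complex, 35.8 ± 16.8, 25.3 ± 14.4 and 29.4 ± 8.82 TPM.

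Among the chaperones, Supt16, a subunit of the FACT complex, averaged 29.8 ± 8.92, 22.3 ± 12.7 and 23.1 ± 6.35 TPM in chow, HFD+L-NAME alone and HFD+L-NAME+NO2-OA. Chaf1b, of the complex that loads H3 and H4 onto new DNA, averaged 2.30 ± 0.909, 1.57 ± 1.14 and 1.65 ± 0.465 TPM, Cabin1, a partner of the HIRA complex for H3.3, 13.8 ± 5.61, 10.2 ± 4.89 and 11.4 ± 3.40 TPM, and Nap1l1, a carrier of H2A and H2B, 53.1 ± 13.9, 51.9 ± 20.7 and 43.0 ± 13.8 TPM. Levels of the replication genes were low next to those of the leading histone genes. The helicase subunit Mcm2 averaged 6.95 ± 4.10, 3.97 ± 2.60 and 4.55 ± 1.20 TPM, Mcm4 16.8 ± 7.47, 13.7 ± 10.3 and 17.5 ± 3.64 TPM, the cyclin Ccne1 1.89 ± 0.847, 1.14 ± 0.511 and 0.893 ± 0.338 TPM and E2f1, a transcription factor of S phase entry, 2.06 ± 0.843, 2.42 ± 0.501 and 1.60 ± 0.487 TPM.

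Markers of dividing cells were also low. Mki67 averaged 2.58 ± 1.03, 3.07 ± 0.973 and 3.04 ± 1.20 TPM, Top2a 1.87 ± 0.973, 1.86 ± 1.05 and 1.41 ± 0.227 TPM and Cdc20, an activator of the anaphase-promoting complex, 2.90 ± 1.64, 2.10 ± 1.82 and 1.92 ± 0.456 TPM. Ube2c, a ubiquitin-conjugating enzyme of mitosis, spread widely, with means of 3.87 ± 3.90, 6.64 ± 4.88 and 15.9 ± 13.6 TPM, and Nusap1, a spindle protein, averaged 2.47 ± 1.85, 4.21 ± 2.85 and 8.09 ± 6.02 TPM. The highest Ube2c and Nusap1 values, 37.1 and 16.3 TPM, were in HFD+L-NAME+NO2-OA replicate 1, whose replication-dependent sum was 2738 TPM, below the median of its group.

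The way TPM was computed raises short genes, and histone genes are short. In the deposited values the length that divides the reads matched the annotated length less 149 bases for 91.4% of 26466 genes over 400 bases. For the members this raised TPM by a factor of 1.02 to 1.91 (median 1.35), most for H4c12, annotated at 312 bases. With the full annotated length the mean over 16 libraries was 820.1 TPM for H4c18, 808 for H1f2, 566 for H4c17, 546 for H2ac19 and 451 for H2bc4, so that H1f2 moved up to the second place. Comparisons of 1 gene between libraries do not depend on this factor beyond the scaling of the library total.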

How the data were processed

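Total RNA of PBMCs, which had been isolated over Ficoll, cleared of red cells and frozen, was random-primed after depletion with the Watchmaker and Polaris kit and sequenced as paired reads of 150 bases, per the labels' protocols. The authors processed the reads with HISAT2 and featureCounts after bcl2fastq and Trim Galore, and the builds named are mm39 and hg38, per the submitters' processing notes, which give no versions. The annotation and the handling of reads with several placements are not given in the sources used here. The deposited values are TPM, computed by the authors, for 51179 genes. Whole reads were recovered from the TPM values (tolerance 0.001 reads) for all but 1 gene above 0. They followed the annotated length less 149 bases for 28889 genes. For 3600 genes they came from the TPM steps alone and for 139 from a search over lengths. Depth limits low members: 1 read of 500 bases was worth up to 0.496 TPM.

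The 76 members were found by symbol, and gene types, lengths and stem-loops came from GENCODE M21. Promoters are RefSeq's (GRCm38.p6). Groups came from the labels (5, 5 and 6 libraries). Limma 3.58.1 (R 4.3.3) with a variance trend took log2(TPM + 1) over all 16 libraries for the 16365 genes with at least 1 TPM in at least 5 libraries, two-sided, with Benjamini-Hochberg adjustment over all genes and a threshold of 0.05, in 3 comparisons. Log2 differences are on that scale and understate changes of low genes. Sums are given without a test. Relations with marker sums, both on that log2 scale, used 100000 permutations, and 1 gene of the marker lists is not reported here and is in no sum. The genes named are the 3 highest replication-dependent members of each family, all replacement forms, the 4 members of smallest unadjusted p in each comparison, and in each pathway list the 2 of smallest p in HFD+L-NAME against chow and the 2 in HFD+L-NAME+NO2-OA relative to HFD+L-NAME, with Slbp, Npat, Mki67 and Top2a. H4c9, H2ac6, H4c1, Gm23054, Gm25131 and members named for their relation to a marker sum, copies or level were chosen after their values were seen. The members and lists were chosen with earlier results of these data known.

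Beside leaving out each library, 14 alternatives were planned and 3 added after seeing the data: limma-voom on recovered reads, TPM with the full annotated length, and leaving out 4 libraries with peritoneal macrophage genes. The same-numbered libraries of the groups were checked for pairing, and 3 of 15 pairs had deviations correlated above 0.1 (range -0.51 to 0.51), so no pairing was used. Simulated data with known changes were used to test the fit. Python 3.11.15, numpy 2.4.6, pandas 2.3.3, matplotlib 3.10.9 and the R package data.table (version 1.17.8) were used.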

Additional observations from a re-analysis of the deposited data

Results flagged for a closer look

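Among 164 groups of 5 or 6 libraries, 9 held 1 library far from the others of its group by Dixon's criterion. Chance gives about 1 in 20, which is close to the share found, so the 9 are listed as a description only. HFD+L-NAME+NO2-OA replicate 2 stood low for 5 genes. There H2bc4 was at 16.3 TPM against 189.8 to 754 in the other libraries of its group, H2bc15 at 22.2 TPM against 76.0 to 150.4, H4c17 at 28.4 TPM against 362 to 905, the replacement gene H3f3a at 52.6 TPM against 174 to 229, and the cyclin Ccne1 at 0.238 TPM against 0.835 to 1.12. Chow replicate 3 was low for H3f3a, at 74.2 TPM against 176 to 247, and for H2aj, at 11.7 TPM against 25.6 to 33.5. HFD+L-NAME replicate 5 was low for H4c11, at 1.72 TPM against 7.52 to 9.27, and held the only Macroh2a2 value of its group above 0, 0.0591 TPM. These 3 libraries are the ones with under 25% protein-coding TPM. The part of that share in these values was not tested.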

How the results depend on the processing

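No histone gene was called in any of the 3 comparisons under 16 of the 17 alternatives or when any library was left out. The exception was limma with quality weights per library, which called 10 members and 4205 genes in HFD+L-NAME against chow, 11 members and 1815 genes in HFD+L-NAME+NO2-OA relative to HFD+L-NAME, and 0 members and 34 genes in HFD+L-NAME+NO2-OA relative to chow. The cause was not tested.

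The count of all genes called in HFD+L-NAME against chow, 1, became 0 with a pseudocount of 10, no filter, median of ratios, TMM, the protein-coding sum, the full length, voom or without the libraries under 25% protein-coding TPM, 2 in run 1 alone or without the libraries with peritoneal macrophage genes, and 4 with only the 2 groups compared. It was 0 to 2 with each library left out in turn, namely 0 without HFD+L-NAME replicate 2, 3, 4 or 5 and 2 without chow replicate 1 or 5 or HFD+L-NAME replicate 1. In HFD+L-NAME+NO2-OA relative to HFD+L-NAME it went from 1 to 2 with a pseudocount of 0.1, run as a covariate or without the macrophage libraries, to 3 in run 1 alone, and to 0 with median of ratios, TMM, the protein-coding sum, the full length, voom or without the libraries under 25%. Leaving out 1 library gave 0 to 4: 0 without HFD+L-NAME replicate 3, 4 or 5, 2 without HFD+L-NAME replicate 1 and 4 without HFD+L-NAME+NO2-OA replicate 2. In HFD+L-NAME+NO2-OA relative to chow it went from 0 to 1 in run 1 alone, and was 0 to 1 with each library left out in turn, with 1 gene without HFD+L-NAME+NO2-OA replicate 2.

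The replacement sum differed by 0.59 in HFD+L-NAME against chow both in run 1 alone and without the macrophage libraries, and by 0.13 in HFD+L-NAME+NO2-OA relative to chow in run 1 alone. With 1 library left out the log2 differences of the replication-dependent sum were -0.31 to 0.52, -0.82 to 0.02 and -0.58 to 0.05 in the 3 comparisons, and of the replacement sum -0.45 to 0.07, -0.40 to 0.11 and -0.50 to -0.17. The sums have no value under the pseudocounts, filters, variance trend, 2 groups, weights or voom. In HFD+L-NAME against chow, H2bc27, H1f4 and H4c2 turned to 0.12, 0.33 and 0.25 both in run 1 alone and without the macrophage libraries, and H4c6 turned to 0.21 with quality weights. In HFD+L-NAME+NO2-OA relative to HFD+L-NAME, H2bc14 turned to 0.12 with quality weights. The cause was not tested.

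With the replicate number as a block, the genes called were 1, 1 and 0, the members called 0, 0 and 0, the replication-dependent sum 0.04, -0.40 and -0.36 and the replacement sum -0.21, -0.13 and -0.34. The libraries share only a number. Members under about 1 TPM rest on few reads.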

Other observations

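Chow replicate 1 and HFD+L-NAME replicate 4 were the highest libraries for H4c1 (188 and 208 TPM) and for H3c1 (97.3 and 101 TPM), replication-dependent genes that did not rise with the platelet markers. The same libraries were the highest for the replacement genes H3f3b (407 and 458 TPM) and H2az1 (150.0 and 136 TPM) and for Slbp (27.0 and 28.3 TPM). Summed S phase genes reached 424 and 411 TPM there, against at most 223 TPM in the other 14 libraries, while the summed mitosis genes were at 30.8 and 29.3 TPM, inside the range of 12.7 to 67.8 TPM over all libraries. These libraries were picked after their values were seen, belong to different groups and runs, and were not compared with the rest by a test.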
